A study of Mus musculus with 4 samples.

Results

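In MC38 tumours, 1615 of 16143 droplet barcodes that were taken as tumour cells were rich in transcripts of Apobec1 and Adam2, and these barcodes are described here. MC38 is a mouse colon carcinoma line that is widely used to study tumour immunity. The tumours were grown in wild-type mice and in FOXP3 humanized mice, which were 10 weeks old, received no treatment and were killed on day 20 after inoculation. FOXP3 is the transcription factor of regulatory T cells, and the stated interest of the series was in the expression of those cells inside the tumour. Both groups carried the same tumour line, and single cells were isolated on Percoll as immune cells before capture in droplets. Each genotype had 1 cDNA library, so n = 1 per genotype throughout, and genotype, mouse and library cannot be told apart. The labels say neither how many mice went into a library nor which part of FOXP3 was humanized.

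Apobec1 encodes a cytidine deaminase that edits C to U in RNA, and its best known target is the apolipoprotein B transcript of the intestine. It works with RNA-binding cofactors that direct it to its targets. Adam2 encodes fertilin beta, a membrane protein of sperm from the ADAM family that lacks protease activity and takes part in fertilization. Tumour cells can express such germline genes, although healthy tissues outside the testis mostly do not.

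The members were chosen by a readout. Barcodes with at least 5000 unique molecular identifiers (UMIs, 1 per captured transcript) and 0 UMIs over 7 leukocyte genes (Ptprc, Cd3e, Cd3d, Cd3g, Trac, Trbc1 and Trbc2) were taken as tumour barcodes. These were 6606 of 7691 wild-type barcodes and 9537 of 11087 humanized barcodes. The score was the number of Apobec1 and Adam2 UMIs per 10000 UMIs, and members had a score at or above the 90th percentile of both libraries pooled, which was 4.68. By this rule 1169 wild-type and 446 humanized barcodes were members, and 5437 and 9091 were not. Levels of Apobec1 and Adam2 in members, and all contrasts of members with the other tumour barcodes, follow from this choice and are given as a description without a test. Intervals are at 95% and cover counting error only.

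The score ran without a gap through the threshold, so the members are the top of a range of scores. A score without a gap cannot show whether they are a separate type of cell, since counting error spreads low counts. The lowest member had a score of 4.683 and the highest barcode outside had 4.682. Within 10% above the threshold lay 218 members, and within 10% below it lay 244 other barcodes. A score of 0 was found in 5179 barcodes, or 32.1%, and the median score was 0.962. Wild-type members had a median score of 7.63 with quartiles of 5.93 and 11.3, and humanized members had a median of 6.13 with quartiles of 5.29 and 8.41. The highest scores were 341 in the wild-type library and 72.8 in the humanized.

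**Figure D1:**
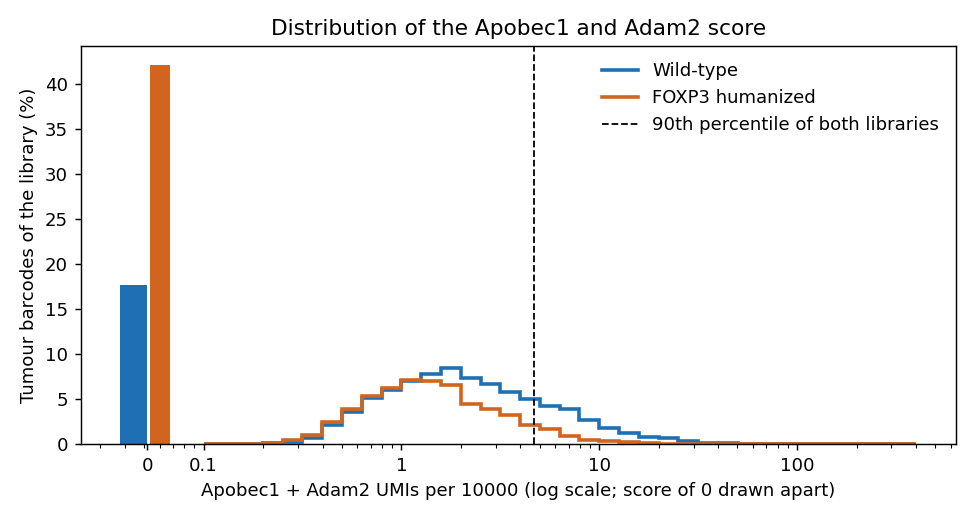
Share of each library's tumour barcodes (percent, vertical axis) by Apobec1 and Adam2 score (UMIs per 10000, log axis, with barcodes at a score of 0 as bars on the left), with lines for the wild-type and humanized libraries. The dashed line is the threshold of 4.68, which falls on a continuous slope in both libraries, and the bar at 0 is higher in the humanized library.

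The label of tumour cell was checked against markers. Vim, an intermediate filament of mesenchymal cells that MC38 cells express, stood at 2712 UMIs scaled to a total of 1000000 (CPM) in wild-type members and 3535 CPM in humanized members, against 2907 and 4113 CPM in the other tumour barcodes. Epithelial keratins were nearly absent. Krt8 had 15 UMIs over all wild-type members and 3 over all humanized members, Krt18 had 2 and 0, and Krt19 had 4 and 0. Wild-type members were below the others for Krt8 (0.606 against 1.11 CPM), Krt18 (0.0808 against 1.54 CPM) and Krt19 (0.162 against 0.893 CPM). In the humanized library Krt8 was at 0.483 against 0.273 CPM and Krt19 at 0 against 0.289 CPM, and Krt18 was at 0 in both. Of 15 colon epithelium markers only Cdh1 (E-cadherin) reached 100 UMIs in each library, at 2.79 CPM in wild-type and 2.09 CPM in humanized members. The 7 genes of the ADAM family without protease activity other than Adam2 and 14 germline and pluripotency genes all stayed under that minimum, among them Adam32 with 8 and 1 member UMIs, Nanog with 5 and 4, and Pou5f1 with 3 and 0. The tumour label thus rests on Vim, on the lack of leukocyte UMIs that the rule required, and on the 2 score genes themselves, not on epithelial markers. The leukocyte UMIs and the score genes were set by the rule, so they are no check of the label. Vim does not tell tumour cells from other mesenchymal cells.

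Markers of other cell types were read in members and in the other tumour barcodes. Summed over 10 markers, T cell transcripts stood at 2.06 CPM in wild-type and 1.45 CPM in humanized members, with 7 of 10 markers at 0, which include the 6 T cell genes that the rule required to be 0. Lck gave 36 of the 51 wild-type and 6 of the 9 humanized member UMIs. Macrophage and monocyte transcripts (10 markers) stood at 5.86 and 6.60 CPM in members, against 6.16 and 5.58 CPM in the others, with 3 and 7 markers at 0 in members. Cd68 gave 114 of the 145 wild-type and 34 of the 41 humanized member UMIs. Dendritic cell transcripts (8 markers, including MHC class II) were at 7.55 and 2.41 CPM in members, below 14.1 and 5.67 CPM in the others, with 3 and 4 markers at 0 in members. Adgre1, C1qa and C1qc of macrophages and Xcr1, Clec9a and Ccr7 of dendritic cells were at 0 in members of both libraries. Fibroblast transcripts (8 markers) were at 107 and 112 CPM, below 133 and 146 CPM, with 1 and 3 markers at 0 in members, among them Lum in both libraries. Pericyte and smooth muscle transcripts (6 markers) were at 64.4 and 78.9 CPM, against 66.7 and 72.6 CPM in the others. Nearly all of this was Cspg4, with 1567 of 1595 wild-type and 485 of 490 humanized member UMIs, while Acta2 had 6 and 1. Endothelial and neutrophil transcripts were higher in members in both libraries. Endothelial transcripts (6 markers) were at 4.20 and 3.22 CPM in members, against 2.71 and 2.27 CPM in the others, with 0 and 1 markers at 0 in members. Of the 104 and 20 member UMIs, Pecam1 gave 41 and 10 and Emcn 30 and 5. Other markers were mixed. Cdh5 was at 0.0808 against 0.128 CPM in the wild-type and 0.322 against 0.0987 CPM in the humanized library. Vwf was at 0.929 against 0.854 CPM and 0.322 against 0.524 CPM, and Kdr had 1 and 0 member UMIs. Neutrophil transcripts (6 markers) were at 0.889 and 1.77 CPM, against 0.471 and 0.881 CPM, on 22 and 11 member UMIs, of which Cxcr2 gave 19 and 8. Of the neutrophil markers Retnlg and Ly6g were at 0 in members of both libraries. The part of these transcripts in the results that follow was not tested.

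Apobec1 was the larger part of the score in both libraries. In the wild-type library its summed level was 820.6 CPM in members (20316 UMIs) and 98.4 CPM in the others, a log2 ratio of 3.06 (3.03 to 3.09). In the humanized library it was 571 CPM in members (3550 UMIs) and 65.4 CPM in the others, a log2 ratio of 3.13 (3.07 to 3.18). Adam2 stood at 355 CPM in wild-type members and 55.6 CPM in the others, and at 181 and 27.5 CPM in the humanized library, log2 ratios of 2.67 and 2.72. Most members held both transcripts, but 12.3% of wild-type and 33.6% of humanized members had no Adam2 UMI, against 1.45% and 2.69% without an Apobec1 UMI. The typical wild-type member had 10 Apobec1 and 4 Adam2 UMIs, and the typical humanized member had 7 and 1 (medians).

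Both genes were seen well beyond the members. Of the other tumour barcodes, 66.5% of the wild-type and 45.7% of the humanized library had an Apobec1 UMI, and 49.4% and 25.3% had an Adam2 UMI, at median depths of 16450 and 12475 UMIs. As a background for free RNA, barcodes under 5000 UMIs with at least 3 UMIs of the leukocyte genes had an Apobec1 UMI in 5.21% of 96 wild-type and 3.27% of 153 humanized barcodes, at median depths of 1794 and 1574 UMIs. Their Apobec1 level was 26.6 CPM (8.63 to 62.0) and 18.5 CPM (5.99 to 43.1), and their Adam2 level 31.9 CPM (11.7 to 69.4) and 3.69 CPM (0.0934 to 20.6). Apobec1 levels in the other tumour barcodes lay above these intervals in both libraries, as did Adam2 in the humanized library. Adam2 in the other wild-type barcodes, at 55.6 CPM, lay inside the interval of that background.

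The members were a larger share of the wild-type tumour barcodes than of the humanized ones. They were 17.7% (16.8 to 18.6) of the wild-type and 4.68% (4.26 to 5.12) of the humanized tumour barcodes, 3.78-fold apart, and the log2 ratio of the shares (humanized over wild-type) was -1.92 (-2.07 to -1.77). With 1 library each, this difference has no replicate check. Wild-type tumour barcodes were also deeper, with a median of 16806 UMIs against 12468. The share was therefore read in 5 shared ranges of depth. From the shallowest to the deepest, the wild-type share was 15.4%, 15.2%, 16.0%, 19.1% and 25.2%, and the humanized share was 4.95%, 4.83%, 4.31%, 4.44% and 3.88%. The wild-type share was thus higher in each range of depth, and within the wild-type library it was higher in the deepest barcodes. With every barcode thinned to 5000 UMIs the log2 ratio was -1.80. The score that marked the top 10% within a library was 7.10 in the wild-type library and 3.06 in the humanized.

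**Figure D2:**
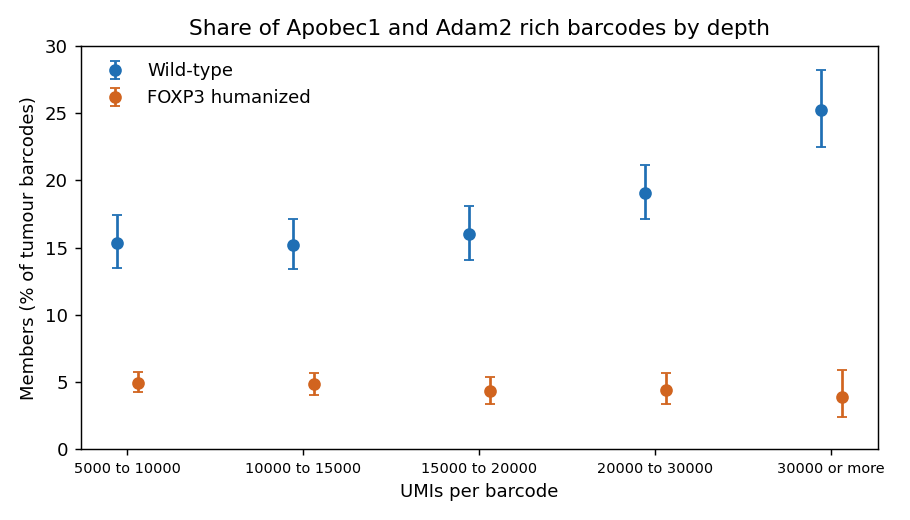
Members as a percent of tumour barcodes (vertical axis) in 5 ranges of UMIs per barcode (horizontal axis), with points for the wild-type and humanized libraries and bars for exact binomial 95% intervals. The wild-type points run from 15.2% to 25.2% and the humanized points from 3.88% to 4.95%, and no intervals overlap between libraries.

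Members and the other tumour barcodes were close in depth and in the measures of RNA quality. The median was 18502 UMIs in wild-type members and 16450 in the others, and 12394 and 12475 in the humanized library. At 5000 UMIs each, members had a median of 1823 detected genes against 1798 in the wild-type, and 1722.5 against 1685 in the humanized library. The median mitochondrial share was 0.127% and 0.141% in the wild-type, and 0.0989% and 0.0932% in the humanized library, and ribosomal protein transcripts took 32.9% and 32.9%, and 35.1% and 34.9%, of UMIs. Named by their symbols (Gm with a number, or Rik), predicted genes took 2.48% of UMIs in wild-type members against 2.09% in the others, and 2.01% against 1.78% in the humanized library.

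Because both genes were used in the score, each was also read in barcodes chosen by the other alone. In the top 10% by Apobec1 alone, Adam2 stood at 280 CPM in 1094 wild-type barcodes against 77.7 CPM in the rest, a log2 ratio of 1.85 (1.80 to 1.90). In the humanized library it stood at 80.1 CPM in 521 barcodes against 31.9 CPM, a log2 ratio of 1.33 (1.20 to 1.46). Chosen by Adam2 alone, the top barcodes had 552 CPM of Apobec1 against 172 CPM in the wild-type, and 211 against 81.9 CPM in the humanized library, log2 ratios of 1.68 and 1.37. The transcripts of the 2 genes were thus found together more often in the same barcodes, in each library. At an equal 5000 UMIs per barcode, Adam2 was seen in 36.7% of wild-type barcodes with an Apobec1 UMI and in 21.9% of those without, and in 18.1% and 11.2% of humanized ones. Across thinned barcodes of the same library Pearson's r of their counts was 0.42 in the wild-type (n = 6606) and 0.18 in the humanized library (n = 9537), and 0.34 and 0.14 without the barcode with the highest score. The coupling was partial: of the barcodes in the top 10% by Apobec1, 37.9% in the wild-type library and 17.3% in the humanized were also in the top 10% by Adam2, where 16.8% and 5.33% of all tumour barcodes were. Of those in the Adam2 top, 37.5% and 17.7% were in the Apobec1 top, where 16.6% and 5.46% of all tumour barcodes were.

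To see how much of the choice was counting noise, each barcode's UMIs were split at random in 2 parts, members were chosen on the first part and levels were read in the second. In the second part Apobec1 was higher in the chosen barcodes by a log2 ratio of 2.78 in the wild-type library and 2.64 in the humanized, and Adam2 by 2.46 and 2.18. In the first part, which made the choice, the values were 3.17 and 3.25 for Apobec1 and 2.76 and 2.94 for Adam2. Of the chosen barcodes 68.0% in the wild-type library and 42.7% in the humanized were again in the top 10% of the second part. Most of the difference in level was thus found again in UMIs that made no choice, while the membership of single barcodes was less stable, more so in the humanized library.

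A few barcodes carried very high counts. The wild-type barcode with the highest score held 857 Apobec1 and 1300 Adam2 UMIs among 63276, as well as 158 UMIs of Zfp286, 249 of Mei1 and 128 of Bmp8a. That barcode alone held 14.8% of all Adam2 UMIs of wild-type members. It also held 54.6% of the Mei1 UMIs of all wild-type tumour barcodes. The top 5 barcodes held 11.8% of the score gene UMIs of wild-type members and 5.2% of those of humanized members.

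Among 12234 other genes with at least 100 UMIs in each library, 420 were at least 1.5-fold higher in members in both libraries with both intervals above 0, which is 3.43% of the genes. Those at least 1.5-fold lower by the same rule numbered 33, or 0.27%. These calls read the contrast that the rule made. The median log2 ratio over all 12234 genes was 0.05 in both libraries. Across genes the log2 ratios of the libraries had r = 0.58, and r = 0.73 over the 7889 genes with at least 1000 UMIs in each library, where genes of a library are not independent. Read 1 library at a time, 801 genes were called higher by the wild-type library. Of these, 91.4% had the same direction in the humanized library and 67.0% were past 1.5-fold there. Of the 103 genes called lower in the wild-type, 89.3% had the same direction in the humanized library and 44.7% were past 1.5-fold. Of 688 genes called higher by the humanized library, 94.6% had the same direction in the wild-type and 61.0% were past 1.5-fold there. Of 120 called lower, these shares were 80% and 27.5%. As a background, 5492 of all 12234 genes were above 0 in both libraries and 3093 were below 0 in both. Past 1.5-fold, without regard to the interval, were 978 higher and 342 lower genes in the humanized library. In the wild-type library these were 805 and 111. The difference between higher and lower genes in the shares was not tested.

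**Figure D3:**
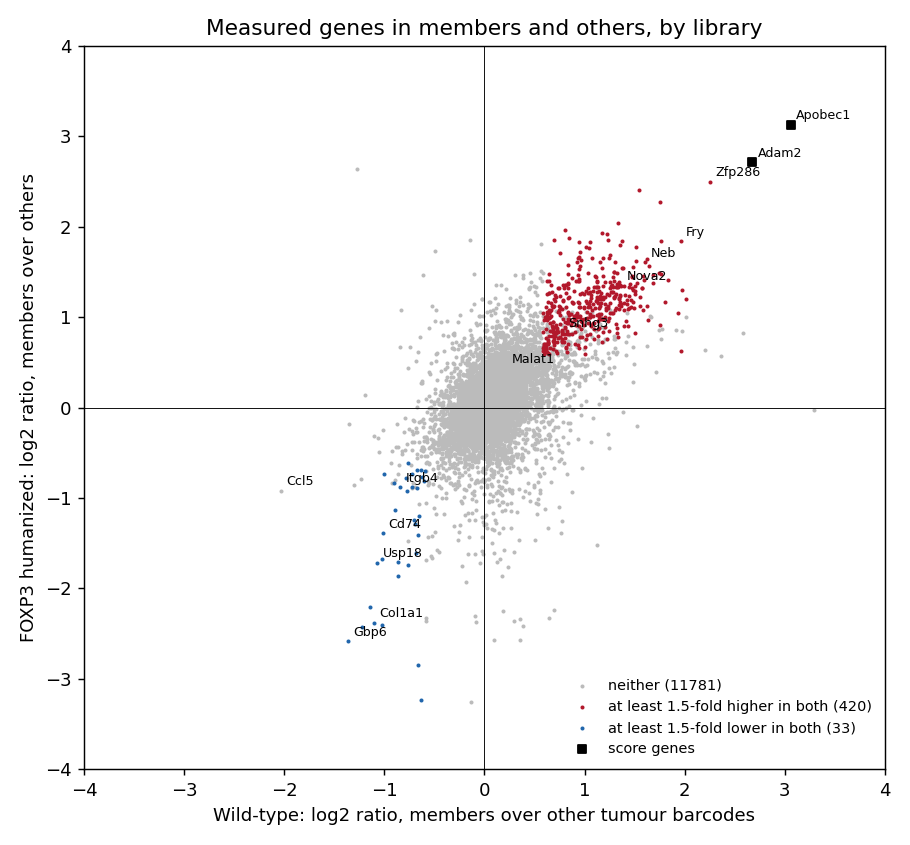
Log2 ratio of members over other tumour barcodes for each measured gene in the wild-type (horizontal axis) and humanized (vertical axis) library, with 420 genes at least 1.5-fold higher in both in red, 33 lower in both in blue and the score genes as squares. Apobec1 and Adam2 sit apart at the upper right by construction. The red genes form a cloud of small to moderate ratios, and the call required them to be higher in both libraries.

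The named genes that were higher in members came from many families. Fry, which encodes a large scaffold protein of cell shape and mitosis, stood at 16.0 CPM in wild-type members against 4.11 CPM in the others and at 10.3 against 2.88 CPM in the humanized library. Its log2 ratios were 1.96 (1.76 to 2.16) and 1.84 (1.43 to 2.22). Sdk2, a synaptic adhesion molecule, stood at 17.4 against 5.14 CPM and 8.53 against 2.37 CPM, log2 ratios of 1.76 and 1.85. These 2 genes were low in all barcodes, and only 19.6% of wild-type members had a Fry UMI, against 6.55% of the others.

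Some of the named higher genes had more counts. They were ranked on being higher in both libraries, so their direction follows from that choice. Neb, which encodes the giant thin filament protein nebulin of muscle, was at 62.2 against 20.4 CPM in the wild-type and 33.8 against 11.1 CPM in the humanized library, a log2 ratio of 1.61 in both. Grik2, a kainate receptor subunit, was at 90.6 against 35.6 CPM and 60.4 against 23.6 CPM, log2 ratios of 1.35 and 1.35. Nova2, a neuronal splicing factor, was at 93.8 against 36.4 CPM and 56.8 against 22.3 CPM, log2 ratios of 1.37 and 1.35. A Nova2 UMI was seen in 65.9% of wild-type members and 39.3% of the others, and in 45.1% and 23% in the humanized library, so these transcripts were spread over many members and not held by a few.

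The transcription factor gene Nfe2l3, of the cap'n'collar family, was at 38.3 against 12.2 CPM and 20.1 against 6.81 CPM, log2 ratios of 1.65 and 1.56. Fbxo47, an F-box gene known from meiosis, had log2 ratios of 1.68 and 1.38. Sspo, which encodes SCO-spondin, had 1.69 and 1.46, and Sgcz, a sarcoglycan of the muscle membrane complex, 1.47 and 1.46. The tubulin ligase family gene Ttll9 had 1.5 and 1.34, and the glycosyltransferase gene B4galnt2 had 1.40 and 1.34. All of these stood under 40 CPM in members of both libraries.

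For a few of the higher genes the counting is uncertain. Or8b40, an olfactory receptor gene with close paralogs, was at 80.2 against 26.6 CPM and 39.6 against 14.8 CPM, log2 ratios of 1.59 and 1.42. Tnfsf13os is antisense to Tnfsf13, and its log2 ratios were 1.38 and 1.54. No source used here says how reads were divided between such copies or overlapping genes. The zinc finger gene Zfp286 led the ranking with log2 ratios of 2.26 and 2.50, but a single barcode held 52.3% of its member UMIs in the wild-type library and 50% in the humanized. Without the barcode with most of its UMIs on each side its log2 ratios were 1.23 and 1.56.

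The genes that were lower in members were fewer, and several belong to antigen presentation and interferon responses. Which genes were called lower depended on how members were chosen. Of the 33, 12 were called again with the 80th and 9 with the 95th percentile, 13 with a percentile within each library, 6 with thinned barcodes and 3 with Adam2 alone. H2-Aa, an MHC class II chain, was at 2.02 CPM in wild-type members against 4.48 CPM in the others, a log2 ratio of -1.15 (-1.60 to -0.72). In the humanized library it had 3 UMIs in members, at 0.483 against 2.23 CPM, with a log2 ratio of -2.21 (-4.50 to -0.65). Cd74, the MHC class II invariant chain, was at 4.12 against 8.30 CPM and 1.45 against 3.80 CPM, log2 ratios of -1.01 and -1.39. Both are markers of dendritic cells and other antigen presenting cells. The summed dendritic cell markers were also lower in members, but that sum includes H2-Aa itself. Of its 187 wild-type member UMIs, H2-Aa gave 50, H2-Ab1 57 and H2-Eb1 72, so the sum mostly repeats MHC class II. Of its 15 humanized member UMIs these genes gave 3, 7 and 4. With a stricter gate that also required 0 UMIs over Tyrobp, Fcer1g, Lyz2, Csf1r, Laptm5, Coro1a and Cd52, the log2 ratio of Cd74 was -0.54 in the wild-type library, short of 1.5-fold, and -1.35 in the humanized. That of H2-Aa was -0.62 and -2.12. The wild-type ratios of both genes were thus nearer 0 with that gate.

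Among interferon-induced genes, the GTPase genes Gbp6 and Irgm2 had log2 ratios of -1.37 and -1.02 in the wild-type. Humanized values were -2.58 on 1 member UMI (-7.90 to -0.08) and -1.67 on 4 member UMIs (-3.56 to -0.30). Gbp6 has close paralogs. Usp18, which removes the ISG15 modifier, had -1.07 in the wild-type and -1.72 on 3 humanized member UMIs (-4.01 to -0.15). Ubd, a ubiquitin-like modifier, was at 4.89 against 9.09 CPM and 3.38 against 7.42 CPM, log2 ratios of -0.89 and -1.13. The chemokine gene Ccl5 was at 1.53 against 6.29 CPM in the wild-type, a log2 ratio of -2.04. In the humanized library it was at 1.45 against 2.74 CPM, with an interval from -2.06 to 0.02 that spans 0, so it was not called.

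Matrix and adhesion genes were also among the lower ones. Itgb4, the integrin beta 4 subunit, had the most counts of the named lower genes. It stood at 31.2 CPM in wild-type members against 56.1 CPM in the others, a log2 ratio of -0.84 (-0.95 to -0.74), and at 38.1 against 70.3 CPM in the humanized library, -0.88 (-1.07 to -0.70). It fell short of 1.5-fold in the wild-type library and the humanized with Adam2 alone (-0.22 and -0.30) and when thinned (-0.39 and -0.47), and in the wild-type at the 80th percentile (-0.49 and -0.59). Col1a1, a chain of type I collagen, was at 4.04 against 8.68 CPM and 2.58 against 13.4 CPM, log2 ratios of -1.10 and -2.38, but -0.50 and -0.21 with Adam2 alone. At the 80th percentile these were -0.69 and -0.28. Col1a1 is also a fibroblast marker, and the summed fibroblast list that was lower in members, as given above, includes Col1a1 itself. In that list Col1a2 was also lower in members, at 51.6 against 71.8 CPM and 63.6 against 82.8 CPM, as was Pdgfrb. Dcn was not, at 37.0 against 36.2 CPM and 32.5 against 31.4 CPM. Il1rl1, the receptor of interleukin 33, had log2 ratios of -0.91 and -0.83. Apod, Kif26b, Krt79 and Trim29 were called lower as well, each on 2 or 3 UMIs in humanized members, and Izumo4 was not called, since its humanized interval spanned 0.

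Many of the higher genes were predicted or long noncoding genes. Of the 420 higher genes 191, or 45.5%, had predicted symbols, against 9.65% of all measured genes. Taken as a class, 191 of 1180 predicted genes (16.2%) were called higher and 0 were called lower, and the median log2 ratio of the class was 0.31 in both libraries. Of 603 genes that RefSeq lists as long noncoding, 94 (15.6%) were higher, against 206 of 10790 protein-coding genes (1.91%). By level, 7.69% of genes under 5 CPM were called higher and 0.74% of genes at 100 CPM or more. Among protein-coding genes, the share called higher was 1.07% among the shortest 20% by genomic span and 3.20% among the longest 20%. Among the shortest the median log2 ratios were -0.03 and -0.01 in the wild-type and humanized libraries, and among the longest 0.09 and 0.10. At 20 CPM or more these shares were 0.245% and 2.21%. These classes were looked at after the genes had been seen, and the part of intronic or nuclear RNA in them was not tested.

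The genes whose counts went most with Apobec1 across thinned barcodes, among 2658 genes with at least 0.2 UMIs per thinned barcode, were Lrrc8d, Anks3, Gm15417, Man1a and Gm41609. Their mean r of the libraries ran from 0.25 for Lrrc8d to 0.22 for Gm41609, below 0.30 for Adam2. With Adam2 they were Gm15417, Gm47080, Gm49313, Man1a and Anks3, with mean r from 0.30 to 0.20. Gm15417, Man1a and Anks3 were on both lists. In the wild-type library r was larger, for example 0.50 between Gm15417 and Adam2 against 0.10 in the humanized library. These barcodes share a library, and the wild-type values include the barcode with the highest score. In members, Lrrc8d, a subunit of the volume-regulated anion channel, was at 370 CPM against 178 CPM in the wild-type and 258 against 129 CPM in the humanized library. Man1a, which encodes a mannosidase of the Golgi, was at 267 against 108 CPM and 143 against 66.5 CPM.

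Members were also near each other by the rest of their profile. In 30 principal components of 2000 variable genes, without Apobec1 and Adam2 and at 5000 UMIs each, on average 35.5% of the 15 nearest barcodes of a wild-type member were members. That compares with 12.4% for the other wild-type barcodes and with the members' 17.7% share of the library. In the humanized library it was 11.4% for members and 3.28% for the others, with a share of 4.68%. Most of the neighbours were members for 25% of wild-type members and 1.57% of humanized members. In each library a member thus had members among its neighbours more often than another tumour barcode did, and most neighbours of most members were still other barcodes.

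The genes around the 2 score genes in the genome were mostly not called. Of the 5 measured genes on each side of Apobec1 on chromosome 6 in the RefSeq gene order, Slc2a3 was called higher. Slc2a3 encodes a glucose transporter and is the nearest measured gene on its side, where genes that were not measured may lie between. It was at 5.13 against 3.34 CPM and 4.02 against 2.06 CPM, log2 ratios of 0.62 and 0.97. Usp18, the fourth measured gene on the other side, was called lower. The other 8 were not called, with log2 ratios from -0.81 (Pex26, humanized library) to 1.06 (Rimklb, wild-type library). Of the 10 measured genes around Adam2 on chromosome 14 none was called, among them Clu at 36.5 against 36.3 CPM in the wild-type and 12.7 against 15.9 CPM in the humanized library. By chromosome, 23 of 554 measured genes on chromosome 6 (4.15%) and 3 of 376 on chromosome 14 (0.80%) were higher, beside 302 of the 11446 genes placed on chromosomes 1 to 19 and X (2.64%).

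Genes that work with the 2 genes were called about as often as all genes. Of 27 measured genes in 4 lists 1 was called higher (3.70%), beside 3.43% of all genes, and 0 were called lower. Of 8 APOBEC1 cofactor genes 7 were measured and none was called either way, with median log2 ratios of 0.14 and 0.06. Rbm47, an RNA-binding cofactor that can stand in for A1cf, was at 3.47 against 1.40 CPM in the wild-type, a log2 ratio of 1.31 (0.90 to 1.70). In the humanized library it had 9 member UMIs and a log2 ratio of 0.66 (-0.51 to 1.63). A1cf, the classic cofactor, had 1 UMI in all tumour barcodes. Hnrnpab, which binds APOBEC1, was abundant, at 795 against 782 CPM and 805 against 772 CPM. Of 11 measured transcripts known to be edited by APOBEC1 none was called, with medians of 0.06 and 0.02, and Apob had 0 UMIs in all tumour barcodes. These are levels of transcripts, and editing itself was not analysed here. The related deaminase gene Apobec3 was at 36.9 against 33.9 CPM and 32.4 against 33.2 CPM.

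On the side of Adam2, none of 6 measured ADAM protease genes was called, with median log2 ratios of 0.10 and 0.30. Adam10, a sheddase of Notch and other membrane proteins, had log2 ratios of 0.07 and 0.34, and Adam17, the sheddase of tumour necrosis factor, 0.13 and 0.31. Of 11 genes of fertilin and sperm and egg fusion 3 were measured. Spaca6, which sperm need to fuse with the egg, was called higher at 8.08 against 4.63 CPM and 6.60 against 3.87 CPM. Cd9 and Cd81, broadly expressed tetraspanins that take part in that fusion, had log2 ratios of -0.14 and -0.24 in the wild-type and -0.10 and -0.22 in the humanized library. Adam1a, which encodes the partner subunit fertilin alpha, had 9 UMIs in wild-type and 3 in humanized members.

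The lists with the lowest medians were those of interferon responses. Of 19 measured type I interferon genes, 4 were called lower and 0 higher, with medians of -0.57 in the wild-type library and -0.50 in the humanized, beside 0.05 for all genes, and 17 were below 0 in both. Of all 12234 measured genes, 33 (0.27%) were called lower and 3093 were below 0 in both libraries. Isg15, a ubiquitin-like antiviral modifier, was at 11.6 against 18 CPM and 7.24 against 11.7 CPM, log2 ratios of -0.63 (-0.82 to -0.45) and -0.69 (-1.15 to -0.26). Ifit3, Ifi44 and Usp18 were the other 3, and these had 4, 1 and 3 UMIs in humanized members. Bst2, an antiviral membrane protein with more counts, was at 125 against 168 CPM and 90.5 against 128 CPM, log2 ratios of -0.43 and -0.50, which did not reach 1.5-fold. Of 19 interferon gamma genes 4 were lower and 0 higher, with medians of -0.38 and -0.42. Besides Gbp6 and Irgm2 these were Gbp2, at 9.05 against 14.3 CPM and 5.63 against 14.9 CPM, and Igtp, at 5.94 against 9.34 CPM and 3.70 against 8.53 CPM. Of the interferon gamma genes 14 were below 0 in both libraries and 2 above 0. Those 2 were Gbp5, with log2 ratios of 0.52 and 0.64, and Cd274, with 0.14 and 0.13. Cxcl10 had -0.77 in the wild-type library and 0.44 (0.03 to 0.82) in the humanized. In the type I list only Xaf1 was above 0 in both, at 0.30 and 0.32.

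Other lists of immune recognition and matrix lay below the median of all genes as well. Of 11 MHC class I genes 8 were below 0 in both libraries and the medians were -0.18 and -0.16, but none was called lower. H2-K1, a classical class I chain, was at 1404 against 1793 CPM and 1162 against 1401 CPM. H2-T23, a non-classical chain, was called higher instead, at 24.2 against 15.3 CPM and 19.5 against 12.4 CPM. Reads of these closely related genes may have been shared. Of 12 collagen and matrix genes 3 were lower (Col1a1, Col3a1 and Col6a2), with medians of -0.31 and -0.19. Col6a2 was at 94.7 against 151 CPM and 110 against 177 CPM. The mesenchymal gene Sparc, a matrix glycoprotein that many cells secrete, was at 802 against 1131 CPM and 1297 against 1683 CPM, without reaching 1.5-fold. Chemokine and cytokine genes had medians of -0.33 and -0.21, and 0 of 9 were called.

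Cryab, a small heat shock protein, was the only lower gene of 13 measured heat shock genes. It was abundant, at 466 CPM in wild-type members against 804 CPM in the others and at 387 against 662 CPM in the humanized library, log2 ratios of -0.79 and -0.77. None of 19 sterol synthesis genes was called, with medians of -0.30 in the wild-type library and -0.12 in the humanized. Fdps, of the mevalonate pathway, was at 199 against 284 CPM and 352 against 416 CPM. The sterol list thus stood lower in members mainly in the wild-type library, and that difference between libraries was not tested.

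On the higher side the lists moved less. As a background for the counts that follow, 5492 of all 12234 measured genes were above 0 in both libraries. Of 10 nuclear retained and snoRNA host noncoding RNAs, 9 were above 0 in both libraries, with medians of 0.32 and 0.29. Only Snhg3, a host gene of small nucleolar RNAs, was called, at 133 against 77.5 CPM and 91.6 against 51.4 CPM. Neat1, the scaffold RNA of paraspeckles, was at 280 against 178 CPM and 181 against 125 CPM, log2 ratios of 0.66 and 0.53. Malat1, an abundant nuclear RNA, had log2 ratios of 0.22 and 0.44. Of 14 replication-dependent histone genes only H2bc8 was called higher (log2 ratios of 0.95 and 0.90), with list medians of 0.19 and 0.25. Of 24 genes of G2 and mitosis none was called, but 20 were above 0 in both libraries, with medians of 0.22 and 0.20. Cenpf, a kinetochore protein, was at 75.8 against 55.4 CPM and 67.3 against 48.5 CPM.

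Many other lists stayed near the median of all genes in both libraries. S phase, p53 target, integrated stress, complex I, proteasome, ribosomal protein and mRNA decay genes had no member called and medians between -0.02 and 0.08. Hypoxia and glycolysis genes had medians of -0.07 and -0.10, and none of 22 was called. Of the 5 metallothionein and zinc genes, Slc39a10, a zinc importer, was called higher, at 9.53 against 5.97 CPM and 9.01 against 5.19 CPM. Mt1, a metallothionein, had log2 ratios of -0.05 and -0.37.

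**Figure D4:**
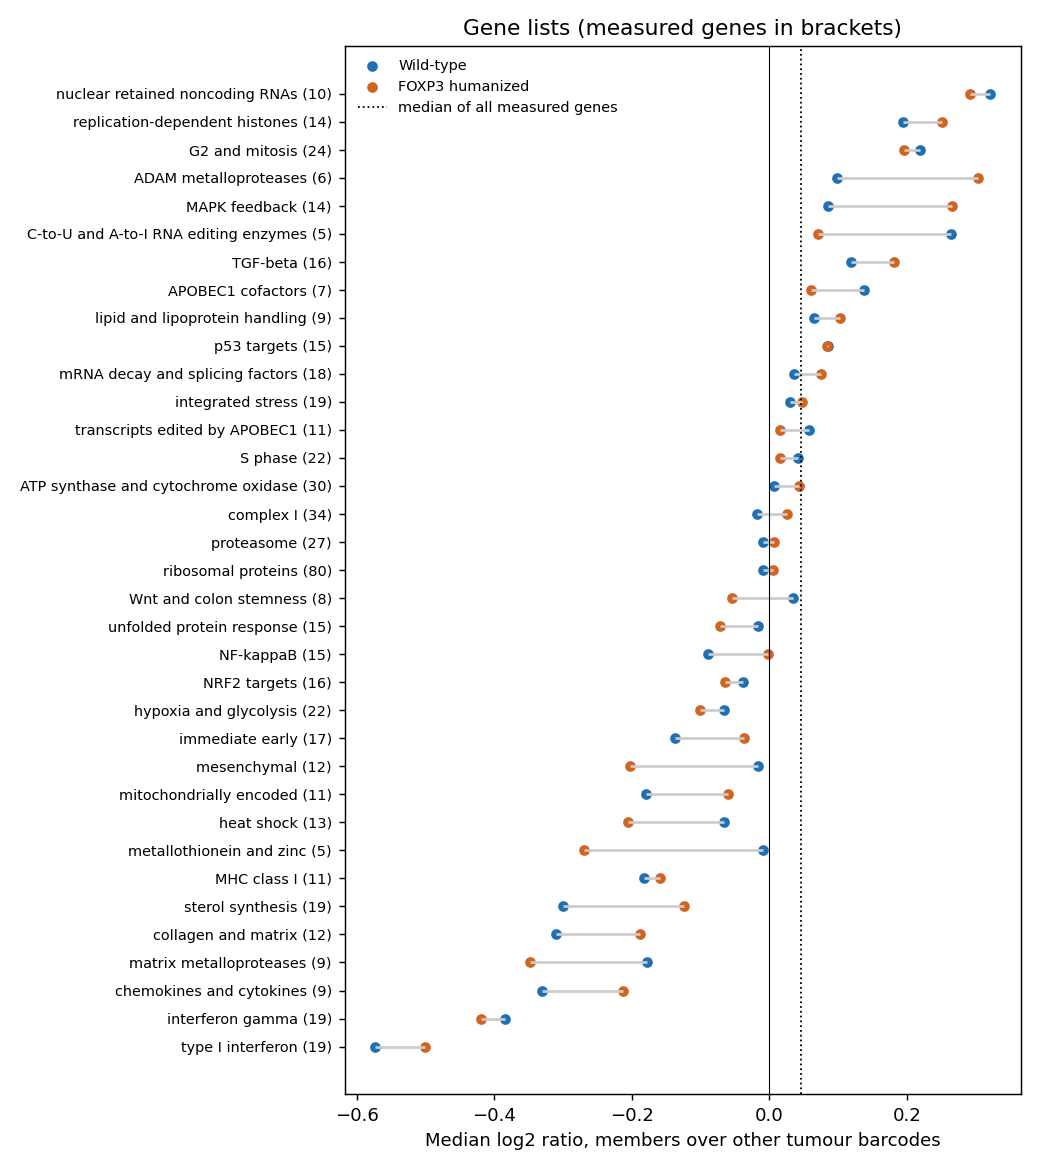
Median log2 ratio of members over other tumour barcodes (horizontal axis) for each gene list with at least 5 measured genes (vertical axis, number of genes in brackets), with points for the 2 libraries and a dotted line at the median of all measured genes. Type I interferon genes are lowest, at -0.57 and -0.50. Nuclear retained noncoding RNAs are highest in the wild-type library, at 0.32, with 0.29 in the humanized. In the humanized library ADAM metalloproteases are highest, at 0.30, with 0.10 in the wild-type.

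Read per barcode and not as sums, the lists below kept their direction, though not all by as much. At 5000 UMIs each, 23.9% of wild-type members and 15.5% of the others had at least 32 UMIs of nuclear retained noncoding RNAs, a level that 10.4% of all tumour barcodes reached, and in the humanized library 6.73% and 5.88%. Without thinning, 23.4% and 15.1% of wild-type barcodes, and 6.28% and 5.43% of humanized ones, were in the top 10%. At least 9 histone UMIs were found in 18.2% of wild-type members against 10.2% of the others and in 16.8% against 11.3% in the humanized library, and 16.9% against 8.59% and 13.9% against 9.77% were in the top 10% without thinning. At least 41 MHC class I UMIs were found in 7.87% of wild-type members against 15.2% of the others and in 3.36% against 8.5% in the humanized library, and without thinning 6.76% against 14.6% and 3.59% against 8.01% were in the top 10%. At least 15 collagen and matrix UMIs were found in 3.34% against 9.32% and in 7.17% against 11.7%, and without thinning 2.74% against 9.14% and 6.05% against 11.6% were in the top 10%. At least 60 thinned UMIs of the mesenchymal list were found in 0.77% of wild-type members against 3.09% of the others. In the humanized library these shares were 8.97% and 16.0%. Members were thus less often among the barcodes with the highest class I, matrix and mesenchymal levels, in both libraries. They were more often among those with high histone levels. For type I interferon genes, at least 3 thinned UMIs were found in 8.73% of wild-type members against 15.8% of the others. In the humanized library these shares were 8.30% (5.91 to 11.3) and 10.6% (9.99 to 11.3), with intervals that overlap. Their median level without thinning differed little, at 153 against 168 CPM in the wild-type and 128 against 133 CPM in the humanized library.

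The median barcode also differed for genes of G2 and mitosis, by more than the sums. The median level without thinning was 1126 CPM in wild-type members against 569 CPM in the others, and 1125 against 754 CPM in the humanized library. Summed levels were 1906 against 1696 CPM and 1792 against 1659 CPM. Barcodes with a score of 0, which are shallower (medians of 11032 and 9888 UMIs), had the lowest summed levels along the score, at 963 and 1318 CPM.

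Levels were also followed along the whole score, in 7 ranges. Predicted genes summed to 19559 CPM in wild-type barcodes with a score of 0, 21819 CPM in members from the 90th to the 95th percentile and 29890 CPM in the top 1%, and to 17026, 18295 and 21999 CPM in the humanized library. Type I interferon genes went from 360 CPM at a score of 0 to 224 and 190 CPM in the wild-type, and from 261 to 146 and 184 CPM in the humanized library. Collagen and matrix genes went from 1661 to 1316 and 945 CPM in the wild-type and from 1773 to 1421 and 1180 CPM in the humanized library. These levels changed over the range and not at the threshold alone. The top range held 143 wild-type but only 19 humanized barcodes. Without it, the last humanized values, from the 95th to the 99th percentile, were 20671 CPM for predicted, 196 CPM for type I interferon and 1277 CPM for collagen and matrix genes.

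**Figure D5:**
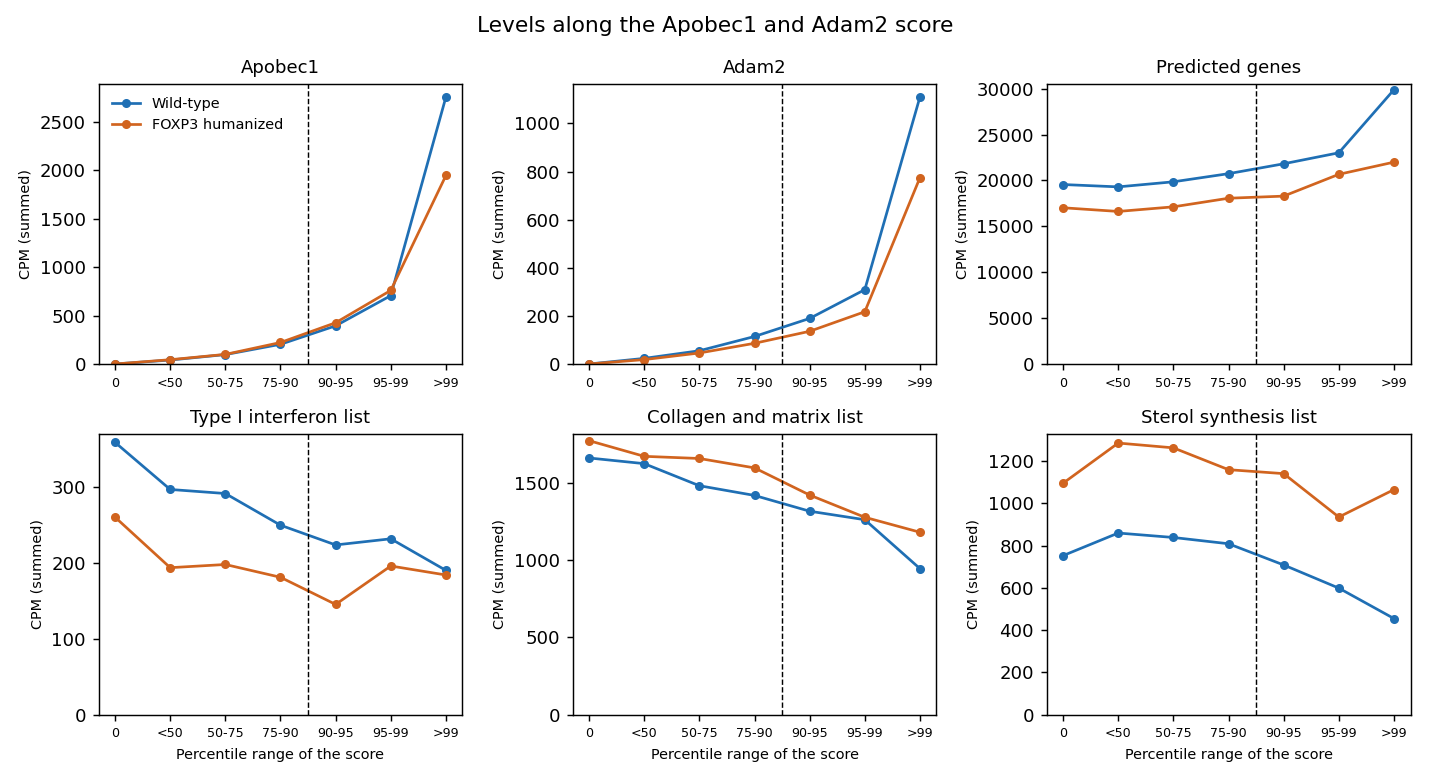
Summed level (CPM, vertical axes from 0) of Apobec1, Adam2, predicted genes and 3 gene lists in 7 ranges of the score by percentile (horizontal axes), with lines for the wild-type and humanized libraries and a dashed line at the threshold. In the top range of the wild-type library predicted genes reach 29890 CPM and collagen and matrix genes 945 CPM, and the last humanized point rests on 19 barcodes.

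Between the libraries, the levels of the score genes in members are set in part by the rule and its pooled threshold, so their ratios are a description. In members the log2 ratio of humanized over wild-type Apobec1 levels was -0.52 (-0.57 to -0.47), beside -0.59 in the other barcodes, and that of Adam2 was -0.97 (-1.06 to -0.88), beside -1.02. Over both member sums 10459 genes had 100 UMIs or more, and 6 of them were at least 2-fold higher in humanized members with an interval above 0 (0.0574%) and 196 were at least 2-fold lower (1.87%). In the other barcodes 2 and 42 of the same genes passed, and 1 and 30 passed the same way in both. The median of all these genes was -0.16 in members and -0.17 in the others. Members are fewer and their counts lower than those of the other barcodes. Scores of members also differed between libraries, with medians of 7.63 (wild-type) and 6.13 (humanized). The top 1% of the score made up 143 of 1169 wild-type and 19 of 446 humanized members. Genes called higher summed to 9468 CPM in wild-type members from the 90th to the 95th percentile and 24722 CPM in the top 1%. For humanized members these sums were 6981 and 14318 CPM. The part of this difference in score in the 6 and 196 genes was not tested. The difference between the 2 sets of counts was not tested either.

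Genes higher in humanized members included a chemokine and sterol genes. Cxcl1, which attracts neutrophils, was at 75.2 CPM in humanized against 22.5 CPM in wild-type members, a log2 ratio of 1.74 (1.56 to 1.92), and at 69.6 against 28.6 CPM in the other barcodes (1.28). Nsdhl and Hmgcs1, both of sterol synthesis, had log2 ratios of 1.37 and 1.04 in members and 0.79 and 0.65 in the others. Ier3, an immediate early gene, had 1.07 beside 0.85, and Tfrc, the transferrin receptor, 1.06 beside 0.37. Each of these 5 genes was thus also higher in the humanized library outside the members.

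Among the genes lower in humanized members, Hmox1, the enzyme that degrades heme, was at 17.9 against 76.4 CPM, a log2 ratio of -2.10 (-2.39 to -1.82), beside -0.82 in the other barcodes. The remaining 4 of the largest differences rested on single barcodes. Mei1 had 321 UMIs in wild-type and 8 in humanized members, and Bmp8a 133 and 0, but 77.6% and 96.2% of their wild-type member UMIs were in 1 barcode. For Akr1d1 and Platr7 these shares were 61.1% and 70.8%.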

How the data were processed

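For each of the 2 cDNA libraries the deposited matrix gives UMI counts that were not normalized. PISA 1.0 made these counts, per the file headers, and the build was GRCm39, per the submitters' processing notes. Aligner, annotation and cell calling: not given in the sources used here. Neither of the oligo libraries was used here. The wild-type library held 134214718 UMIs and the humanized one 147738781, with medians of 15368 and 11575 per barcode.

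Counts were summed over members and over the other tumour barcodes of each library and scaled to the UMIs of all genes (CPM). Ratios carry an exact conditional binomial interval, shares a Clopper-Pearson interval, the ratio of shares a normal approximation on the log scale, and levels a Poisson interval, all at 95%. No test was made, since a genotype had 1 library. A gene was measured with at least 100 UMIs in each library and called when at least 1.5-fold apart the same way in both libraries with both intervals excluding 0. Named genes were the 15 highest and 15 lowest by the smaller absolute ratio of the libraries, without mitochondrial, ribosomal protein, predicted, sex-linked and receptor segment genes, and the largest ratios within each list. A gene that the rule also named is not reported here. Between libraries they were up to 5 each way that were 2-fold apart. Members, lists and rules were chosen with earlier results of these data known.

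Doublets were not called, and leaving out the deepest 5% of barcodes was an alternative. In all, 1551 barcode names occur in both libraries, but these are names and not sequences, so shared cells cannot be counted from them. RefSeq names, biotypes, order and span come from GRCm38.p6, another build, so no coordinates are given. Of the measured genes 93.6% matched, but of the higher genes only 71.9%, so a check of span over that set would be void, and span was compared among protein-coding genes. The procedure was tested on simulated data. Python 3.11.15, numpy 2.4.6, pandas 2.3.3, scipy 1.17.1 and scikit-learn 1.9.0 were used.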

Additional observations from a re-analysis of the deposited data

How the results depend on the processing

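No paired analysis was possible because each genotype has 1 cDNA library. The log2 ratio of member shares was -1.42 with the 80th and -2.62 with the 95th percentile, -2.14 with at least 10000 UMIs, -1.60 with Apobec1 alone and -1.65 with Adam2 alone, so its sign did not change in these; a percentile within each library fixes the share and gives no value. The 420 higher and 33 lower genes became 182 and 11 with barcodes thinned to 5000 UMIs, 250 and 5 with Adam2 alone, 637 and 111 with a lower fold threshold, and 174 and 8 at 2-fold. Of these, 158 and 6 (thinned) and 213 and 3 (Adam2 alone) were among the 420 and 33. Thinning leaves fewer counts, and the cause of the other changes was not tested. Without the barcode with most UMIs of a gene on each side, a setting chosen after seeing the data, 331 and 52 genes were called. Without the top 1% of the score, also chosen then, 327 higher genes were called, of which 319 were among the 420. Scaling by the median ratio gave 376 and 44. By the mean of the libraries, 29 of 32 named genes kept their sign in all alternatives run, and the exceptions were Ccl5 at the 80th percentile (0.0025), Usp18 when thinned (0.0045) and Il1rl1 with Adam2 alone (0.17). Read in single libraries 25 kept it in both, and besides those 3 the exceptions were Gbp6 (humanized, 0.32 thinned and 0.19 with Adam2 alone), Kif26b (wild-type, 0.42 thinned), Izumo4 (humanized, 0.25 with Adam2 alone) and Trim29 (wild-type, 0.04 at the 80th percentile). Of 512 such values 117 were smaller in size and 38 larger than the interval allows. Counts of 1 to 4 UMIs in humanized members limit the lower genes most, and 1 library per genotype limits all contrasts between genotypes.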
